A study of Homo sapiens with 12 samples.

Results

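The receptors for the Fc part of IgG were followed in PMA-differentiated THP-1 cells, a human monocytic leukaemia line that phorbol ester turns into macrophage-like cells. The 6 genes were taken by symbol from a table of 58051 genes: FCGR1A, FCGR2A, FCGR3A and FCGR2B, which encode the Fc gamma receptors, FCER1G, which encodes the signalling chain of 2 of them, and FCGRT, which encodes the neonatal Fc receptor. All 6 were matched and all 6 passed the filter on low counts. They are not independent items: 5 of the 6 lie on chromosome 1, and the 4 Fc gamma receptor genes have near-identical copies there (FCGR1BP and FCGR1CP for FCGR1A, FCGR2C for FCGR2A and FCGR2B, and FCGR3B for FCGR3A). The 4 groups held 3 libraries each and were SDC3-KO cells with IFN-γ, WT cells with IFN-γ, SDC3-KO cells without IFN-γ and WT cells without IFN-γ. SDC3, which encodes the heparan sulphate proteoglycan syndecan-3, had been knocked out with CRISPR/Cas9, and the study asked how this bears on the pro-inflammatory functions of macrophages. PMA at 20 ng/ml had been given for 24 h to all groups, the untreated ones included, and recombinant human IFN-γ to the treated groups on the day after a medium change. How much IFN-γ was used, for how long, and how many edited clones there were is not stated in the labels. They also do not say that the 3 libraries of a group were separate cultures, so the p-values measure the spread between these libraries, which may be technical.

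Fc gamma receptors bind antibody-coated targets on macrophages and start phagocytosis, respiratory burst and cytokine release. FCGR1A encodes the high-affinity receptor CD64, which signals through the ITAM motif of the FCER1G chain, as does the CD16 receptor that FCGR3A encodes. FCGR2A encodes CD32a, which carries its own ITAM, whereas FCGR2B encodes the inhibitory receptor CD32b, whose ITIM recruits phosphatases. FCGRT encodes an MHC class I-like chain that pairs with beta-2-microglobulin and returns IgG from endosomes to the cell surface. IFN-γ is a known inducer of CD64 in human monocytes and macrophages, and the FCGR1A promoter is known for an IFN-γ response region with a PU.1 element nearby.

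Assigned counts were 23616738 to 29426415 a library. SDC3 itself was at 237 to 244 CPM (the gene's counts scaled to the library's size) in SDC3-KO libraries against 572 to 590 CPM in WT with IFN-γ, and at 43.9 to 49.9 against 196 to 252 CPM without it, so its transcript was lower in the knockout but not absent. Of 11 macrophage markers, 10 averaged at least 1 CPM in each of the 4 groups, and CD68 averaged 0.131 to 0.540 CPM. Whether reads of CD68 were lost to overlapping exons of other genes was not examined, so its low count need not mean little transcript. The summed level of the 11 markers was lower in the knockout, at 4409 to 4641 against 5361 to 5552 CPM with IFN-γ and 4253 to 4453 against 4823 to 4992 CPM without it. Among them 0 were called higher and 7 lower with IFN-γ, and 2 higher (CD14 and CSF1R) and 7 lower without it, where 24.3% and 24.8% of all genes were lower. Their part in the differences of the receptor genes was not tested. Among markers of other cells that carry Fc gamma receptors, the 7 B cell markers summed to 10.3 to 12.2 CPM in the knockout against 26.9 to 31.1 in WT with IFN-γ, and to 12.8 to 15.2 against 25.2 to 32.6 CPM without it, with MS4A1 at 0 in every library. The 7 NK cell markers summed to 3.22 to 6.06 CPM over all libraries, with NCR1 at 0. The 7 neutrophil markers summed to 88.8 to 97.4 against 60.8 to 63.4 CPM with IFN-γ and 215 to 228 against 140 to 147 CPM without it, mostly CSF3R and CXCR2, with CEACAM8 at 0.

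The genes were placed by the deposited table on hg38, and the GENCODE 29 annotation gives the same bounds for all 6. FCGR1A is at chr1:149782671-149792518 on the plus strand. FCER1G (chr1:161215234-161220699, plus) lies near the low-affinity receptor cluster, which holds FCGR2A (chr1:161505430-161524013, plus), FCGR3A (chr1:161541759-161550737, minus), FCGR2C, FCGR3B and FCGR2B (chr1:161663147-161678654, plus). FCGRT is at chr19:49506816-49526333 on the plus strand. The 250 bases before the RefSeq start (GRCh38.p14) are shown for the genes that rose most with IFN-γ and for FCGR2B, which did not pass the test. Capitals mark TTCNNNGAA, the form of the IFN-γ-activated site (GAS), and GAGGAA or its complement TTCCTC, a PU.1-type core. The windows, 5′ to 3′ on the gene's strand, were chr1:149782444-149782693 for FCGR1A, chr1:161505207-161505456 for FCGR2A, chr1:161215045-161215294 for FCER1G and chr1:161662893-161663142 for the second of the FCGR2B starts in the table.
FCGR1A: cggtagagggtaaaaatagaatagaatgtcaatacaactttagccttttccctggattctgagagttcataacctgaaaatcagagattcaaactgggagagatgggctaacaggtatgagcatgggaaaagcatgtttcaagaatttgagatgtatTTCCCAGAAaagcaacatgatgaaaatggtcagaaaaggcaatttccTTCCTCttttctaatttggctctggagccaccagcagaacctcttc
FCGR2A: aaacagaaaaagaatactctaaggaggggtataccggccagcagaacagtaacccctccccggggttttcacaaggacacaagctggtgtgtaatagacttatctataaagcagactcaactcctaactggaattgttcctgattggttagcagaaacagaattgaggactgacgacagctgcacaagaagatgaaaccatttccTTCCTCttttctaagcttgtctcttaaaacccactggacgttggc
FCER1G: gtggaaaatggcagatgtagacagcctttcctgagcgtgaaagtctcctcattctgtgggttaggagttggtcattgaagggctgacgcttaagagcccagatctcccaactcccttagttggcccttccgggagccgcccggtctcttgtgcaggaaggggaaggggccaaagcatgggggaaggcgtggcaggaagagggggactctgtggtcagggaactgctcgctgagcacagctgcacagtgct
FCGR2B: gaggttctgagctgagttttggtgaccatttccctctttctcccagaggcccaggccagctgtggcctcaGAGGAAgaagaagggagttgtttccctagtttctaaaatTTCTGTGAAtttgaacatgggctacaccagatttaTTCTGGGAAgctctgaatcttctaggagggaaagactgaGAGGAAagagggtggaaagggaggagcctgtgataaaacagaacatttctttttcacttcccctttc
Searched on both strands, TTCNNNGAA was found once in FCGR1A, as TTCCCAGAA at -93 to -85 from the start, and in 6.57% of the 35116 promoter windows of that length in the RefSeq table. The second FCGR2B window held it at -141 to -133 and at -106 to -98. The windows of FCGR2A, FCER1G, FCGRT and FCGR3A held none. GAGGAA or TTCCTC, found in 23.6% of all windows, stood at -46 to -41 in FCGR1A, at -45 to -40 in FCGR2A and at 2 places in the second FCGR2B window. FCGR1A and FCGR2A shared a run of 20 bases around it, atttccttcctcttttctaa, at -52 to -33 and at -51 to -32, and the windows of all other genes in the table lacked that run. An ISRE-like motif, 2 GAAA runs with 2 bases between them or the complement (3.02% of windows), was found in the second FCGR2B window and in 1 of the 5 FCGR3A windows, and TGANTCA (6.57%) in the first FCGR2B window. None of these motif matches overlapped another in the members' windows. These are matches of letters, and binding was not measured.

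In every group FCER1G was the most abundant of the 6 and FCGR2B and FCGR3A the least. Per kilobase of exon, FCER1G averaged 1203 ± 14.03 CPM (SD, n = 3) in the knockout and 898 ± 26.3 in WT with IFN-γ, and 688 ± 11.8 in the knockout and 547 ± 18.1 in WT without it. FCGR1A came next with IFN-γ, at 138 ± 0.983 CPM per kilobase in the knockout and 105 ± 1.36 in WT, above FCGRT (99.9 ± 1.98 and 86.5 ± 2.68) and FCGR2A (54.7 ± 0.179 and 27.4 ± 1.52). Without IFN-γ the order changed, and FCGRT came next after FCER1G in both genotypes. FCGR2A then stood above FCGR1A in the untreated knockout (24.7 ± 0.560 against 15.9 ± 0.244 CPM per kilobase), while in untreated WT the 2 genes overlapped between libraries (13.8 ± 0.532 and 14.8 ± 0.455). FCGR3A and FCGR2B stood between 0.976 and 2.28 CPM per kilobase in all groups, and overlapped each other in both groups with IFN-γ.

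**Figure D1:**
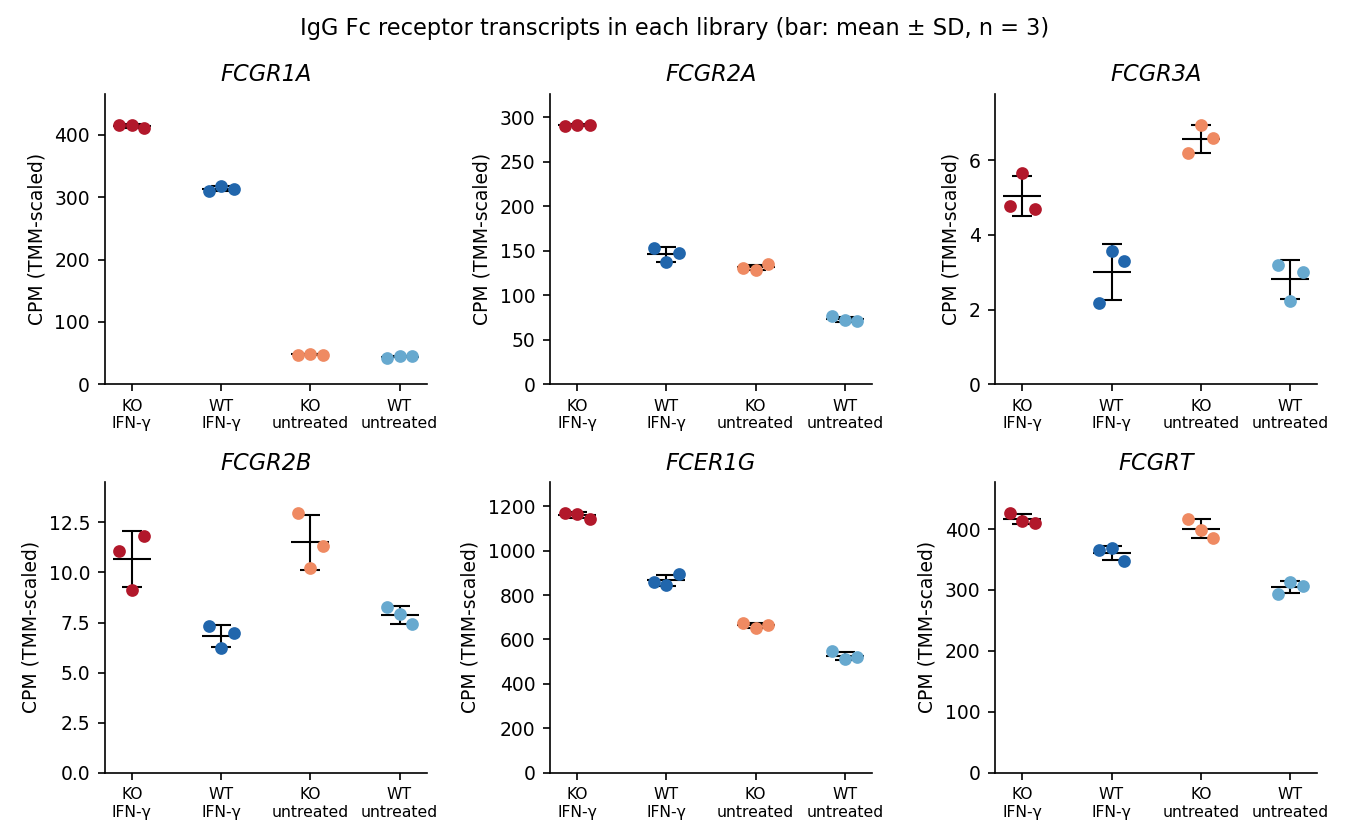
CPM (TMM-scaled, linear axes from 0) of the 6 genes in each of 12 libraries, by group; each point is 1 library and bars give the mean ± SD of 3. FCGR1A lies at 411 to 416 CPM in the knockout and 310 to 318 CPM in the wild type with IFN-γ, and between 42.9 and 48.6 CPM in all untreated libraries.

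With IFN-γ, all 6 genes were higher in the knockout than in WT, by 0.21 to 1.00 on the log2 scale. Of all 17119 genes tested, 47.2% were called at an adjusted p under 0.05 (edgeR's quasi-likelihood test, Benjamini-Hochberg), 22.9% as higher and 24.3% as lower. In both conditions no knockout library of any of the 6 overlapped a WT library, as was so in the higher direction for 26.8% of all genes with IFN-γ and 28.6% without it. Without IFN-γ, 5 of the 6 were called higher and FCGR1A was not, where 50.1% of all genes were called, 25.4% as higher and 24.8% as lower. The median of the 6 was 0.53 with IFN-γ and 0.47 without it, beside -0.01 and 0.01 over all genes tested. In bulk RNA, more transcript in each cell and more cells that hold it cannot be told apart.

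The receptors that signal through an ITAM differed most in FCGR2A and FCGR3A. FCGR2A (CD32a) had 290, 292 and 291 CPM in SDC3-KO libraries against 153, 137 and 148 CPM in WT libraries with IFN-γ, and 131, 129 and 135 against 76.2, 72.2 and 70.8 CPM without it. The genotypes did not overlap in either condition, and the untreated knockout stood close to the IFN-γ-treated WT. The log2 fold changes were 1.00 (SE 0.04, edgeR adjusted p = 2.5e-18) with IFN-γ and 0.85 (SE 0.05, edgeR adjusted p = 2.4e-16) without it, or 1.996-fold and 1.80-fold. FCGR3A (CD16a) had few reads, 118 to 139 counts a library in the knockout and 54 to 94 in WT with IFN-γ. With IFN-γ it stood at 4.78, 5.66 and 4.70 CPM in SDC3-KO libraries against 2.16, 3.57 and 3.30 CPM in WT libraries. Without IFN-γ it had 6.19, 6.95 and 6.58 against 3.20, 2.22 and 3.02 CPM. All knockout libraries lay above all WT libraries, by 0.74 with IFN-γ (SE 0.18, edgeR adjusted p = 0.00068) and by 1.23 without it (SE 0.17, edgeR adjusted p = 1.8e-07). With IFN-γ the summed NK cell markers overlapped between the genotypes, at 4.15 to 4.55 CPM in the knockout and 3.22 to 5.21 in WT. Without it their sum was higher in the knockout, at 5.62 to 6.06 against 4.43 to 4.99 CPM. The single NK cell markers did not share a direction. With IFN-γ 1 of 4 tested was higher and 2 lower, and without it 2 were higher (GNLY and KLRF1) and 1 lower (NCAM1). Over all genes, 22.9% were higher and 24.3% lower with IFN-γ, and 25.4% and 24.8% without it. The highest group mean among these 4 markers was 2.61 CPM, of NKG7 in untreated WT. Their part in the difference of FCGR3A was not tested.

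FCGR1A (CD64) differed with IFN-γ, at 415, 416 and 411 CPM in SDC3-KO libraries against 310, 318 and 313 CPM in WT libraries. The groups did not overlap, and the log2 fold change was 0.40 (SE 0.04, edgeR adjusted p = 1.5e-10). Untreated, it had 47.6, 48.6 and 47.2 CPM in SDC3-KO libraries against 42.9, 45.3 and 45.2 CPM in WT libraries, also without overlap but much closer. That difference of 0.10 (SE 0.04, 95% interval 0.01 to 0.19) missed the threshold by a small margin (edgeR adjusted p = 0.05 after rounding). In GENCODE 29, FCGR1A shares 177 of its exon bases with H2BC18 and 561 (18.7%) with an antisense gene, ENSG00000233030, on the opposite strand, and the header gives no strand option. Those 2 genes had at most 166 and 186 counts in a library, beside 1125 to 10743 for FCGR1A. Reads on the shared bases stay unassigned, so these counts cannot show how many FCGR1A reads were lost in any group.

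FCER1G, the chain through which CD64 and CD16a signal, had 1169, 1167 and 1144 CPM in SDC3-KO libraries against 857, 846 and 895 CPM in WT libraries with IFN-γ. Without it the values were 675, 652 and 664 against 547, 513 and 522 CPM. The genotypes were apart in both conditions, by 0.42 (SE 0.04, edgeR adjusted p = 9.4e-12) and 0.33 (SE 0.04, edgeR adjusted p = 1.7e-09) on the log2 scale. The inhibitory receptor gene FCGR2B was far less abundant, with 160 to 360 counts a library. It had 11.1, 9.12 and 11.8 CPM in SDC3-KO libraries against 7.33, 6.23 and 6.95 CPM in WT libraries with IFN-γ, and 13.0, 10.2 and 11.3 against 8.27, 7.92 and 7.41 CPM without it. FCGR2B thus moved the same way as the activating receptors, by 0.64 (SE 0.12, edgeR adjusted p = 3.4e-05) and 0.55 (SE 0.11, edgeR adjusted p = 0.00013). Of 5 tested B cell markers, 0 were higher and 3 lower in each condition, beside 24.3% and 24.8% of all genes called lower. Their part in the difference of FCGR2B was not tested.

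FCGRT showed the smallest difference with IFN-γ. It had 426, 414 and 410 CPM in SDC3-KO libraries against 366, 369 and 348 CPM in WT libraries, a log2 fold change of 0.21 (SE 0.04, edgeR adjusted p = 4.9e-05). The untreated libraries had 416, 399 and 386 against 294, 314 and 306 CPM, a log2 fold change of 0.39 (SE 0.04, edgeR adjusted p = 4.3e-10). No knockout library overlapped a WT library in either condition. Its light chain partner B2M was higher by 0.22 (SE 0.05, edgeR adjusted p = 0.00025) and 0.47 (SE 0.05, edgeR adjusted p = 5.1e-10).

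**Figure D2:**
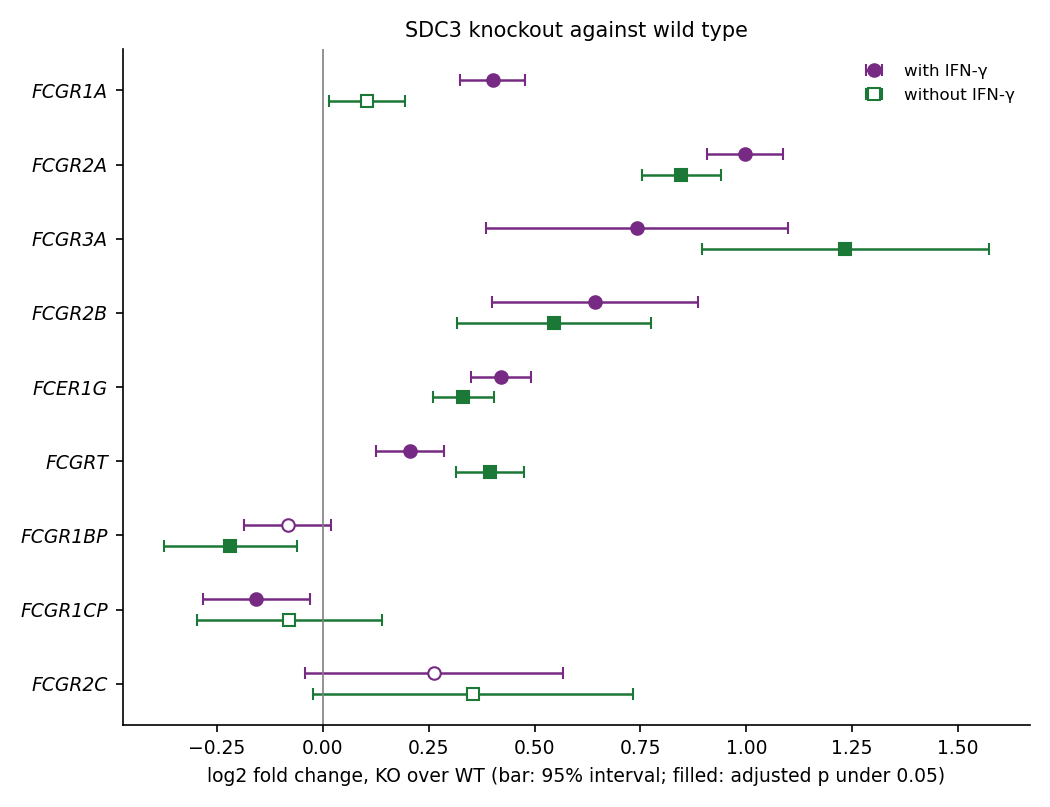
Log2 fold changes of the knockout over the wild type with 95% intervals for the 6 genes and 3 of their copies, with IFN-γ (circles) and without it (squares); filled symbols passed an adjusted p under 0.05 (edgeR). All 6 genes lie above 0 with IFN-γ, FCGR2A at 1.00, while FCGR1BP and FCGR1CP lie at -0.08 and -0.16.

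Reads of near-identical genes can be assigned to the wrong copy, and the copies of FCGR1A did not share its difference. With IFN-γ, FCGR1BP averaged 103 ± 1.503 CPM in the knockout and 109.5 ± 1.98 in WT, and FCGR1CP 60.3 ± 2.07 and 67.3 ± 1.99 CPM (SD, n = 3). FCGR1CP passed the test as lower (-0.16, SE 0.06, edgeR adjusted p = 0.036) and FCGR1BP did not (-0.08, SE 0.05, edgeR adjusted p = 0.18). Without IFN-γ it was FCGR1BP that was called lower (-0.22, SE 0.08, edgeR adjusted p = 0.018). FCGR1A held 71.4% to 71.9% of the counts of these 3 genes in the knockout and 63.5% to 64.8% in WT with IFN-γ, and 77.7% to 79.0% against 73.7% to 75.6% without it. The knockout shares lay above the WT shares in each condition. Added together, the 3 genes were higher in the knockout by 0.24 (SE 0.04, edgeR adjusted p = 1.5e-06) with IFN-γ, against 0.40 for FCGR1A alone, and did not pass the test without it (0.04, SE 0.04, edgeR adjusted p = 0.45). In GENCODE 29 transcripts, 46.3% of the 75-base windows of FCGR1A were found letter for letter in a copy, against 8.85% for FCGR2A, 11% for FCGR2B and 16.8% for FCGR3A. With 150-base windows the shares fell to 18.8%, 1.49%, 7.49% and 4.45%. Both lengths were chosen here, since the read length is not given in the sources used here.

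FCGR2C, a copy with parts like FCGR2A and parts like FCGR2B, averaged 7.68 ± 0.5002 CPM in the knockout and 6.40 ± 0.655 in WT with IFN-γ, and 2.64 ± 0.725 and 2.05 ± 0.0942 CPM without it. Neither difference passed the test (0.26, edgeR adjusted p = 0.15, and 0.35, edgeR adjusted p = 0.11). FCGR2A held 88.9% to 94.4% of the counts of FCGR2A, FCGR2B and FCGR2C in the knockout and 87.8% to 92.04% in WT over both conditions. The sum of the 3 genes was therefore mostly FCGR2A and differed by 0.96 with IFN-γ (SE 0.04, edgeR adjusted p = 5.1e-18) and 0.81 without it (SE 0.04, edgeR adjusted p = 4.8e-16). FCGR3B had 20, 17 and 19 counts in SDC3-KO libraries against 10, 4 and 2 in WT libraries with IFN-γ. It had 0 counts in all 6 libraries without IFN-γ. Its log2 fold change of 1.77 between the genotypes with IFN-γ (SE 0.56, edgeR adjusted p = 0.011) rested on these few counts and was not called by DESeq2, which called 0 of the 4 copies there. The summed neutrophil markers given above were also higher in the knockout with IFN-γ, with no count of CEACAM8. Of 3 tested there, 2 were called higher (CSF3R, and MMP8 at 1.06 CPM in the knockout), beside 22.9% of all genes. CXCR2 was not called (0.013, edgeR adjusted p = 0.93). CSF3R and CXCR2 were lower with IFN-γ than without it in both genotypes, whereas FCGR3B had counts only with it. The part of these markers in the difference of FCGR3B was not tested. FCGR3A and FCGR3B together differed by 0.84 (SE 0.16, edgeR adjusted p = 6e-05) with IFN-γ and 1.23 (SE 0.16, edgeR adjusted p = 6.9e-08) without it.

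**Figure D3:**
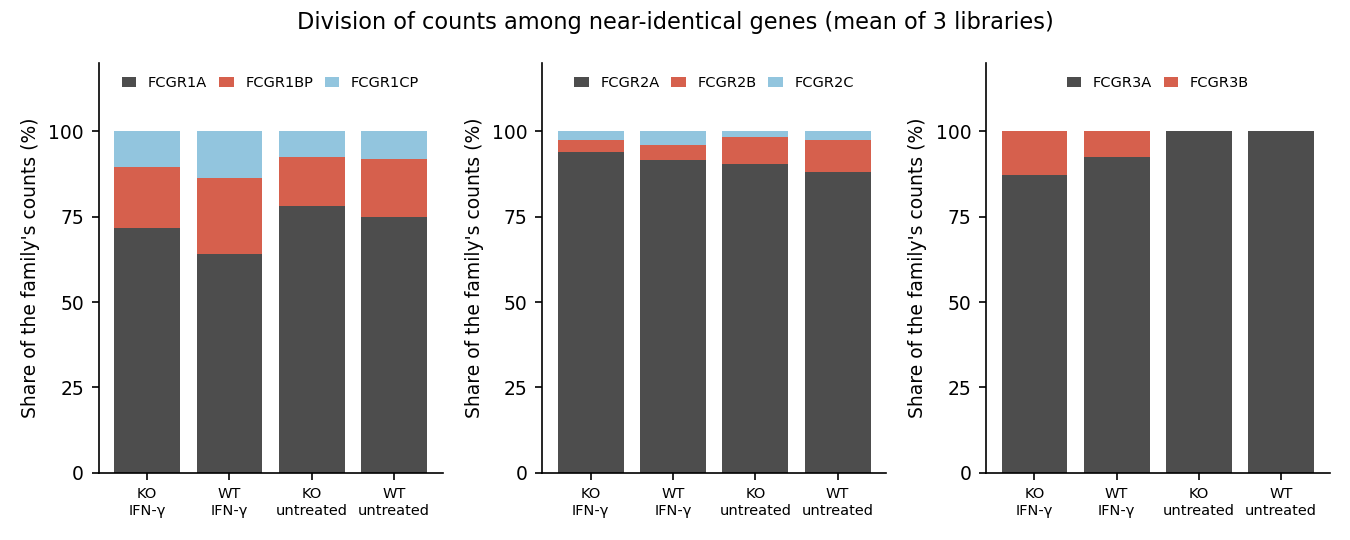
Share of counts (percent, mean of 3 libraries per group, stacked from 0) that each gene took within 3 sets of near-identical genes, by group. FCGR1A takes a mean of 71.7% in the knockout and 63.95% in the wild type with IFN-γ, and FCGR3B takes counts in the 2 groups with IFN-γ only.

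IFN-γ raised FCGR1A most. It rose by 3.11 on the log2 scale in the knockout (SE 0.04, 8.66-fold, edgeR adjusted p = 1.6e-33) and by 2.82 in WT (SE 0.04, 7.05-fold, edgeR adjusted p = 3.2e-32). FCGR2A rose by 1.15 in the knockout (SE 0.04, edgeR adjusted p = 4.1e-21) and by 1.00 in WT (SE 0.05, edgeR adjusted p = 7.8e-19), and FCER1G by 0.81 (SE 0.04, edgeR adjusted p = 1.7e-19) and 0.72 (SE 0.04, edgeR adjusted p = 5.5e-18). These 3 genes were higher without overlap in treated libraries of both genotypes, and FCGRT in those of WT, as were 31.6% of all genes in the knockout and 30.2% in WT (66.2% and 60.5% in either direction). Altogether 3 of the 6 were called higher and 1 lower in the knockout, where 61.1% of all genes were called (29.2% higher, 31.8% lower), and 4 were called higher in WT, where 56.5% were called (28.6% higher, 27.9% lower). The medians of the 6 were 0.43 in the knockout and 0.48 in WT, beside -0.05 and -0.02 over all genes tested. The 4 copies were called higher in both genotypes: FCGR1BP by 3.56 in the knockout and 3.43 in WT, FCGR1CP by 3.72 and 3.80, and FCGR2C by 1.54 and 1.64. FCGR3B had 56 counts over the treated knockout and 16 over the treated WT libraries, against 0 in the untreated groups. With a floor of 3 counts over the untreated group, this is 22.3-fold and 6.35-fold higher. Mates were counted singly, so 3 counts can stand for fewer than 3 read pairs, and these folds are not strict lower bounds.

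The other members answered little. FCGR2B, at 9.12 to 11.8 CPM with IFN-γ and 10.2 to 13.0 CPM without it in the knockout, and 6.23 to 7.33 and 7.41 to 8.27 CPM in WT, did not pass the test (-0.10, 95% interval -0.33 to 0.12, edgeR adjusted p = 0.43, and -0.20, -0.45 to 0.04, edgeR adjusted p = 0.16). Only in WT were treated and untreated libraries without overlap. FCGR3A fell by 0.38 in the knockout, where treated and untreated libraries did not overlap (SE 0.16, edgeR adjusted p = 0.035), a call that was lost with DESeq2 (adjusted p = 0.11), with FCGR3B added (edgeR adjusted p = 0.28) and when any 1 of 4 libraries was left out (edgeR adjusted p = 0.071 to 0.12). In WT it had a log2 fold change of 0.11 (95% interval -0.27 to 0.49, edgeR adjusted p = 0.65). FCGRT passed the test in WT (0.25, SE 0.04, edgeR adjusted p = 2.6e-06) and not in the knockout (0.06, 95% interval -0.02 to 0.14, edgeR adjusted p = 0.21). Scaling bears on such small responses: with library totals alone the median over all genes moved by -0.30 in the knockout and -0.25 in WT, and FCGRT then turned to -0.24 and -0.0049. Higher genes made up 47.9% and 50.7% of the calls in the knockout and in WT with TMM, 23.4% and 25.1% with library totals alone and 36.4% and 37.5% with upper-quartile scaling.

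**Figure D4:**
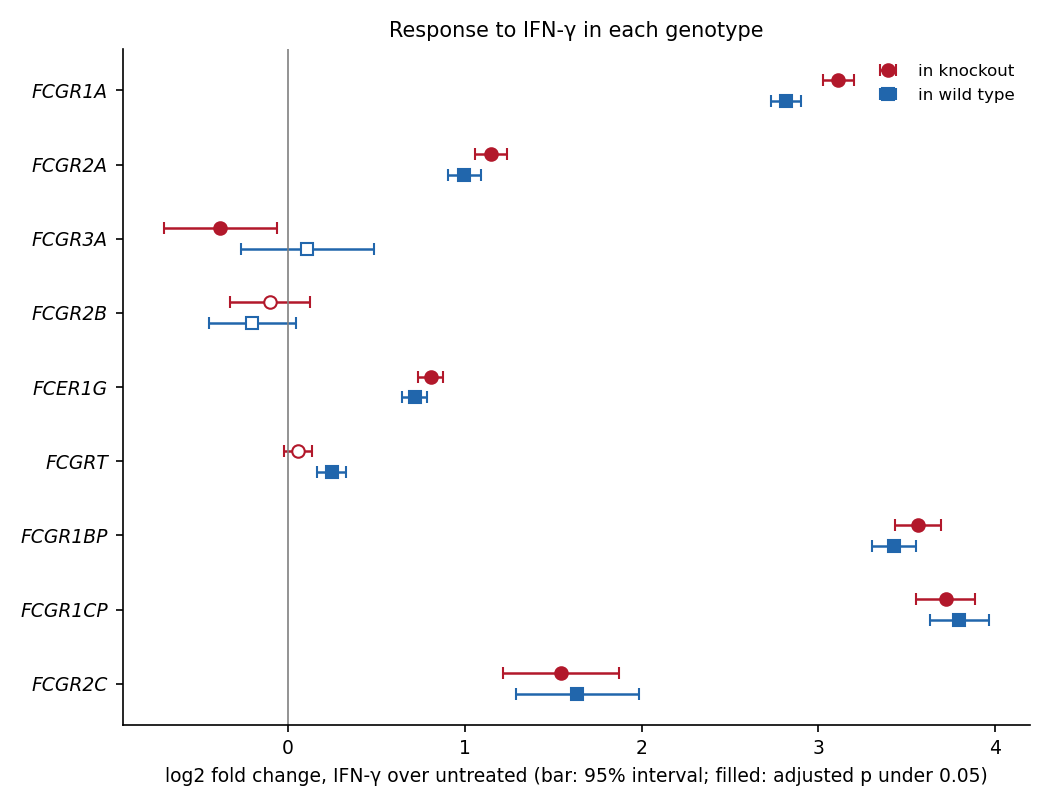
Log2 fold changes of IFN-γ-treated over untreated libraries with 95% intervals for the 6 genes and 3 of their copies, in the knockout (circles) and the wild type (squares); filled symbols passed an adjusted p under 0.05 (edgeR). FCGR1A lies at 3.11 and 2.82, FCGR2B at -0.10 and -0.20.

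The response itself was compared between the genotypes by the interaction term, which 15.5% of all genes passed (7.61% as higher and 7.86% as lower in the knockout). FCGR1A responded more in the knockout, by 0.30 (SE 0.06, edgeR adjusted p = 0.00034), and by 0.20 (SE 0.05, edgeR adjusted p = 0.01) when its copies were added. FCGRT responded less in the knockout, by -0.19 (SE 0.06, edgeR adjusted p = 0.017). That call was lost when the second library of the treated knockout (edgeR adjusted p = 0.12), the first of the untreated knockout (0.065) or the second of the treated WT (0.061) was left out. The other 4 differences, of FCGR2A (0.15, 95% interval 0.02 to 0.28, edgeR adjusted p = 0.11), FCER1G (0.09, -0.01 to 0.19, 0.26), FCGR2B (0.10, -0.24 to 0.43, 0.77) and FCGR3A (-0.49, -0.99 to 0.00, 0.19), did not pass. SPI1, which encodes PU.1, averaged 354 CPM in the knockout and 356 in WT with IFN-γ, and 246 and 249.5 CPM without it (edgeR adjusted p = 0.93 and 0.72).

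The balance of the activating FCGR2A over the inhibitory FCGR2B is given as a ratio of counts per kilobase, with no test. It was 30.9 to 40.0 in the knockout and 26.03 to 27.5 in WT with IFN-γ, and 12.6 to 15.8 in the knockout and 11.4 to 11.95 in WT without it. No 2 groups overlapped. With FCGR2C counted as FCGR2B, the ratios were 19.2 to 21.1 and 13.1 to 14.5 with IFN-γ and 10.1 to 12.8 and 8.96 to 9.40 without it.

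The genes beside the receptor genes on chromosome 1 also differed between the genotypes. Among all genes tested, 22.9% were higher and 24.3% lower with IFN-γ, and 25.4% and 24.8% without it. Of the 20 tested genes nearest to FCER1G, 15 were higher and 0 lower in the knockout with IFN-γ (median 0.56, beside 0.42 for FCER1G), and 15 were higher and 1 lower without it (median 0.55, beside 0.33). Around the FCGR2A, FCGR3A and FCGR2B cluster 11 were higher and 2 lower with IFN-γ (median 0.61) and 13 higher and 3 lower without it (median 0.46), beside 1.00 and 0.85 for FCGR2A. HSPA6 and HSPA7, which start inside the cluster, were not among these 20. HSPA6 was called higher in both conditions (1.08 and 1.16, edgeR adjusted p = 0.00029 and 0.011). HSPA7 was called higher only without IFN-γ (0.56, edgeR adjusted p = 0.029). Around FCGR1A 11 were higher and 0 lower (median 0.54, beside 0.40) and 12 higher and 2 lower (median 0.45, beside 0.10). The 20 genes around FCGR1A include the genes that share exon bases with it. H2BC18 was called higher in both conditions (0.58 and 1.04, edgeR adjusted p = 0.0068 and 0.00034), and ENSG00000233030 in neither. The nearest genes of FCER1G and the cluster are partly the same. Beside FCGRT on chromosome 19, 3 tested neighbours were higher and 4 lower in each condition (median -0.04 in both). In a division of chromosome 1 made after these values were seen, at its longest stretch without a tested gene start (121.5 to 143.6 Mb), 41.3% of the 816 tested genes beyond the stretch were higher in the knockout with IFN-γ and 17.2% lower (median 0.18). Before the stretch 24.2% of 991 genes were higher and 22.1% lower (median 0.01). Other chromosomes differed as well, with medians of -0.39 for chromosome 18, where 149 of 245 genes were lower and 4 higher, and 0.45 for chromosome 21, where 113 of 184 were higher and 7 lower, as the extremes with IFN-γ. Single neighbours included ATF6 (0.66, edgeR adjusted p = 1.4e-13) and SDHC (0.30, edgeR adjusted p = 4.2e-07), and OLFML2B was lower (-1.05, edgeR adjusted p = 3.2e-10). The part of chromosomal position in the members' differences was not tested.

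**Figure D5:**
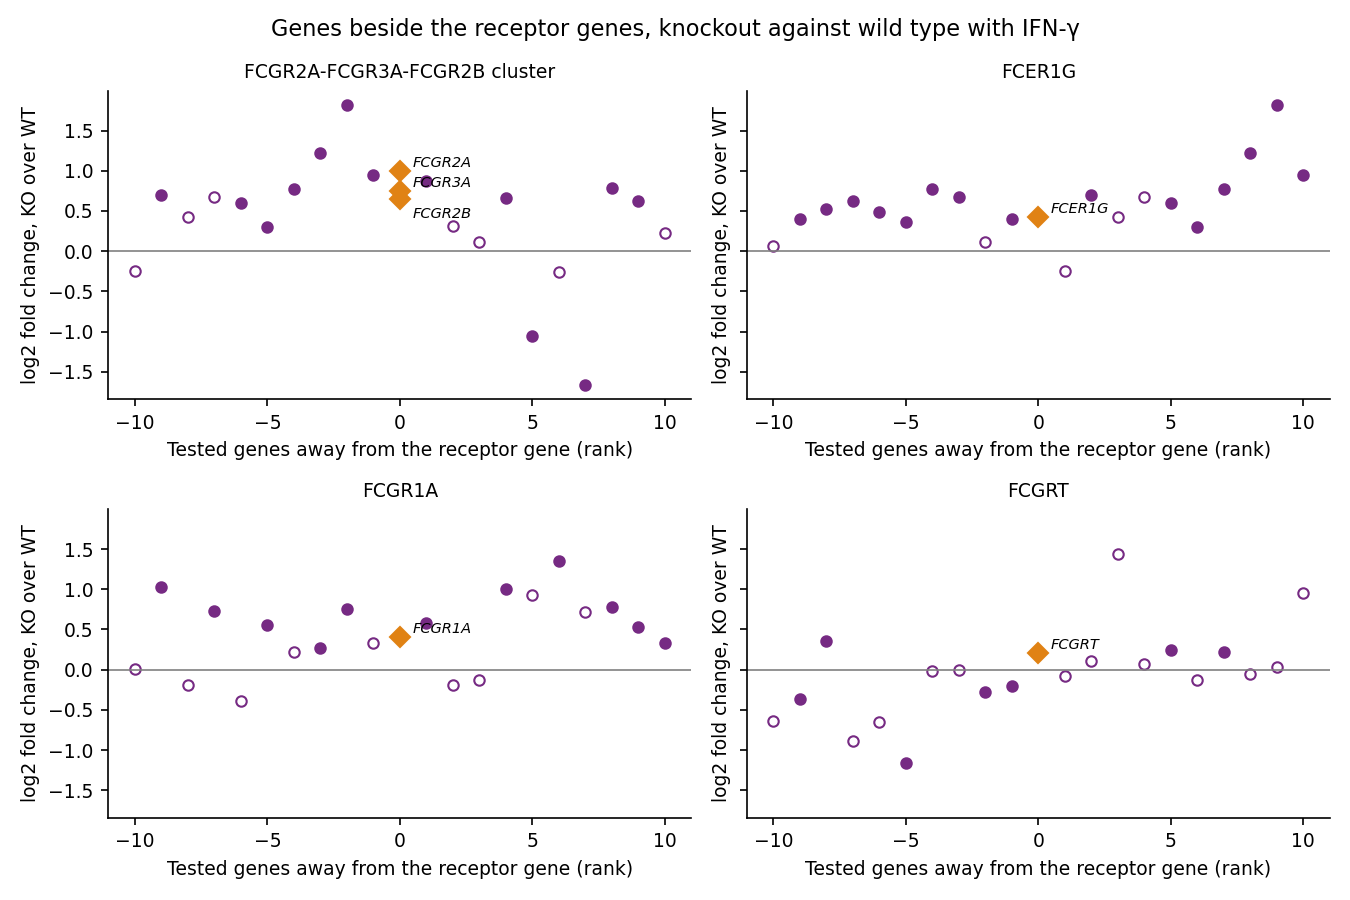
Log2 fold changes of the knockout over the wild type with IFN-γ for the 10 nearest tested genes on each side of the receptor genes, in order along the chromosome (circles; filled, adjusted p under 0.05, edgeR), with the receptor genes as diamonds at 0. Beside FCER1G, 15 of 20 genes are called higher and none lower; beside FCGRT, 3 are higher and 4 lower.

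Among receptors for other immunoglobulin classes, those called (FCAR, FCER2 and FCAMR) were lower in the knockout in both conditions. With Fc receptor-like genes and TRIM21 added, the calls did not share one direction. The list of 16 also holds B2M, the light chain given above, and 9 of the 16 were tested, B2M included. Of these, 3 were higher (FCRLA, TRIM21 and B2M) and 3 lower with IFN-γ, beside 22.9% and 24.3% of all genes. Without it 4 were higher and 4 lower, beside 25.4% and 24.8%. The receptor for IgA, FCAR, was lower in the knockout by -1.77 (edgeR adjusted p = 0.00029) with IFN-γ and -1.08 (edgeR adjusted p = 0.00014) without it, though it averaged at most 3.85 CPM in a group. The low-affinity IgE receptor FCER2 averaged 10.4 CPM in the knockout and 34.1 in WT with IFN-γ, and 0.977 and 6.52 CPM without it (-1.72, edgeR adjusted p = 2.5e-14, and -2.75, edgeR adjusted p = 3.5e-14). FCAMR, a receptor for IgA and IgM, was also lower (-1.45, edgeR adjusted p = 0.00063, and -1.42, edgeR adjusted p = 0.00074). It averaged at most 1.46 CPM in a group, with at most 40 counts in a library. FCRLA, which lies next to FCGR2B, was higher by 0.87 (edgeR adjusted p = 7.3e-06) and 1.11 (edgeR adjusted p = 3.8e-08), and the cytosolic IgG receptor TRIM21 by 0.24 (edgeR adjusted p = 2.7e-05) and 0.37 (edgeR adjusted p = 1.2e-07). FCRLB was called higher without IFN-γ (0.84, edgeR adjusted p = 0.00073) and not with it (0.32, edgeR adjusted p = 0.26), and FCRL6 lower without IFN-γ (-0.27, edgeR adjusted p = 0.036) and not with it (-0.02, edgeR adjusted p = 0.82). For neither did the interaction pass (edgeR adjusted p = 0.28 and 0.23). PIGR, the transporter of IgA and IgM, was called in neither condition (edgeR adjusted p = 0.27 and 0.39).

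FCER1G also serves other receptors, and most of those tested were lower in the knockout. Of 17 partner receptors and sister adaptors, 10 were tested, and 0 were higher and 7 lower in the knockout in each condition (medians -0.92 with IFN-γ and -1.14 without it). Over all genes, 22.9% were higher and 24.3% lower with IFN-γ, and 25.4% and 24.8% without it. The lower receptors were FCAR, which is also in the list above, LILRA1, LILRA2, LILRA5 and LILRA6. The highest group mean among them was 10.45 CPM, of LILRA2 in untreated WT. TYROBP, the sister ITAM adaptor, averaged 670 CPM in the knockout and 884 in WT with IFN-γ, and 527 and 594 CPM without it (-0.40, edgeR adjusted p = 1e-10, and -0.17, edgeR adjusted p = 0.00022). HCST, the DAP10 adaptor, was lower by -1.27 (edgeR adjusted p = 8.7e-09) and -1.19 (edgeR adjusted p = 1.9e-08). In the inhibitory list 5 of 20 were higher and 5 lower with IFN-γ, close to the shares over all genes, and 7 and 6 without it. LILRB1 was lower (-2.11, edgeR adjusted p = 1.1e-14, and -1.75, edgeR adjusted p = 4.2e-13), as was LILRB2. DOK2 was higher by 0.59 and 0.505 (edgeR adjusted p = 3.5e-11 and 4.3e-10). The phosphatase receptor PTPRC (0.54 and 0.55, edgeR adjusted p = 1.3e-11 and 1e-11) and the receptors PECAM1 (0.14 and 0.51, edgeR adjusted p = 0.0032 and 5.8e-13) and CD300A (0.16 and 0.36, edgeR adjusted p = 0.0095 and 2.7e-06) were higher. INPP5D, which encodes the phosphatase SHIP1 that FCGR2B recruits, averaged 522 CPM in the knockout and 537 in WT with IFN-γ, and 622 and 484 CPM without it, a difference of -0.04 (edgeR adjusted p = 0.38) and of 0.36 (edgeR adjusted p = 2.7e-10) on the log2 scale, with an interaction that passed (edgeR adjusted p = 3.2e-07). INPP5D and CD300A were named after their values were seen.

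Downstream of the receptors the calls went both ways. The shares over all genes were 22.9% higher and 24.3% lower with IFN-γ, and 25.4% and 24.8% without it. Of 32 ITAM signalling genes, the knockout had 10 higher and 10 lower with IFN-γ and 12 and 12 without it (medians -0.02 and 0.03). The Src family kinase gene FGR averaged 28.8 CPM in the knockout and 65.3 in WT with IFN-γ, and 47.4 and 178 CPM without it (-1.18, edgeR adjusted p = 7.9e-16, and -1.91, edgeR adjusted p = 3.5e-22), and the PI3K subunit gene PIK3R5 was lower by -0.69 and -1.07 (edgeR adjusted p = 1.6e-12 and 8.5e-18). VAV2, a guanine nucleotide exchange factor, was higher by 0.39 and 0.37 (edgeR adjusted p = 7.7e-05 and 0.00011). Of 30 tested genes of the phagocytic cup 14 were higher and 7 lower with IFN-γ and 13 and 11 without it, with the class I myosins MYO1F higher (0.34 and 0.55, edgeR adjusted p = 2.5e-09 and 4.4e-14) and MYO1E lower (-0.34 and -0.59, edgeR adjusted p = 3.1e-08 and 1.7e-13). Among 15 genes of the phagosome oxidase and lysosome (6 higher and 3 lower, then 7 and 6), the oxidase subunit genes were divided. The membrane subunit CYBB averaged 852 CPM in the knockout and 1265 in WT with IFN-γ (-0.57, edgeR adjusted p = 1.6e-14), while the cytosolic subunit NCF1 averaged 278 and 169 CPM (0.71, edgeR adjusted p = 1.8e-13). NCF1 has near-identical pseudogenes, so its count is uncertain.

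Levels across the 12 libraries were compared with those of 10721 genes of at least 5 CPM by Pearson's r of log2 CPM, as a description in which all genes share the libraries and the 4 groups. The closest to FCGR1A were IFIT3 (0.9996), CXCL10 (0.999) and OAS1 (0.999), and to FCER1G SRP14, ADAR and CTSC (0.998 each). FCGR2A was closest to PRRC2C (0.998), APH1A (0.997) and SAT1 (0.996), and FCGR2B to ZNF44 (0.987). FCGR3A was closest to FCRLA (0.978) and FCGRT to MGRN1 (0.993). Among the members, FCGR2A and FCER1G were most alike (0.967), followed by FCGR1A and FCER1G (0.928), while FCGR1A had r of -0.160 with FCGR2B and -0.0745 with FCGR3A.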

How the data were processed

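Read counts per gene of 12 libraries, in 4 groups of 3, were deposited by the authors as 1 table of 58051 Ensembl genes on hg38. Per the labels' protocols, 1 µg of total RNA went into TruSeq Stranded mRNA libraries. The authors used, per the file headers, featureCounts 2.0.3 on exons, in paired-end mode, on primary alignments, with chimeric pairs left out and no strand option, and reads overlapping exons of several genes stay unassigned by its default. The header shows no option to count pairs, so mates were counted singly, and 71.8% of counts from 1 to 19 were even. The submitters' processing notes also name STAR 2.7.10b, fastp 0.23.2, Picard 2.27.5, MultiQC 1.13, Subread, BWA and FastQC. Which aligner was counted, and how reads of several equal places were aligned, is not given in the sources used here.

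The whole table was fitted with edgeR 4.0.16 (filterByExpr, 17119 genes, TMM, quasi-likelihood test, group as the only term, Benjamini-Hochberg over all genes, threshold 0.05, two-sided). CPM values are counts over TMM-scaled library sizes, and depth limits their precision for genes of few counts. Replicate pairs differed by 2.79 to 6.98 chi-square units per degree of freedom, where independent counts would give about 1, and none was identical. Mates counted singly raise that baseline, so the excess over counting error is smaller than these values show. Fits were tested on simulated data. Alternatives were DESeq2 1.42.0, limma-voom (limma 3.58.1), RLE, upper-quartile and library-total scaling, only the compared libraries, a filter of 5 CPM in 3 libraries or none, each library left out, the replicate block, a log2 fold change of at least 1, summed copies and 5 or 20 neighbours a side. Members, lists and alternatives were chosen with earlier results of these data known. Genes named were the 6 members, their copies, SDC3, tested other Fc receptors and, per list, up to 3 called genes a direction at 5 CPM or more, of which some are given for length; likeness was the 3 genes with the highest r. Neighbours, SPI1, LILRA1, LILRA5 and single cell type markers such as CD68 were named beside results. GENCODE 29 and RefSeq promoter windows (GRCh38.p14) gave sequence. R 4.3.3, Python 3.11.15, pandas 2.3.3, numpy 2.4.6 and matplotlib 3.10.9 were used.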

Additional observations from a re-analysis of the deposited data

Results flagged for a closer look

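The response to IFN-γ differed between the genotypes in 2 of the 6 genes by the interaction term, which 15.5% of all genes passed. FCGR1A rose by 0.297 more on the log2 scale in the knockout (SE 0.06, edgeR adjusted p = 0.00034), with 95% interval 0.18 to 0.42, and the difference kept its call without any single library. With its copies added the difference was smaller, at 0.197 (SE 0.05, edgeR adjusted p = 0.01). FCGRT responded less in the knockout (difference -0.188, SE 0.06, edgeR adjusted p = 0.017, 95% interval -0.30 to -0.08), and this call was lost when any 1 of 3 libraries was left out.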

How the results depend on the processing

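Of the alternative values, 487 kept the direction and the side of the threshold, 26 lost a call, 7 gained one and 10 changed sign, of which 6 were values not called before or after (FCGR2B in the knockout, FCGR3A in WT and FCGRT in the knockout, all responses). Whether the replicate numbers pair the libraries was not settled. Between the treated groups, correlations of deviations were 0.0858, 0.0325 and 0.0722 for libraries of the same number and -0.115 to 0.0389 for different numbers. Libraries did not all correlate best with their own number. The replicate block changed no member's call (FCGR1A 0.40 with IFN-γ, FCGR2A 1.00) and called 7983 genes against 8072 with IFN-γ.

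Asking for a log2 fold change of at least 1 left 1598 genes with IFN-γ, 1562 without it, 3327 and 2776 for the responses in the knockout and in WT, and 458 for the difference. It removed the calls of FCGR1A (0.40, and 0.30 for the difference), FCGR2A (1.00 and 0.85, and 1.00 for the WT response), FCGR2B (0.64 and 0.55), FCGR3A (0.74, and -0.38 for the knockout response), FCER1G (0.42, 0.33, 0.81 and 0.72) and FCGRT (0.21, 0.39, 0.25 and -0.19). The filter of 5 CPM in 3 libraries brought FCGR1A without IFN-γ to a call (0.10, edgeR adjusted p = 0.041), and leaving out libraries gave 0.079 to 0.118 (called without the second untreated WT library, edgeR adjusted p = 0.049). DESeq2 called the difference of FCGR2A (0.18, adjusted p = 0.031) and lost the fall of FCGR3A in the knockout (-0.37), which was -0.18 with FCGR3B added and -0.45 to -0.33 without single libraries. FCGR2B responses were -0.40 and -0.45 with library totals alone and -0.32 in WT with upper-quartile scaling, and its family sum, mostly FCGR2A, was 1.09 and 0.94, while leaving out libraries gave -0.18 to 0.0227 in the knockout. The FCGR3A response in WT was -0.14 with library totals alone, -0.0053 with upper-quartile scaling and -0.0416 to 0.30 without single libraries. FCGRT responses were -0.24 and -0.0049 with library totals alone, -0.061 in the knockout with upper-quartile scaling and 0.078 there with only the compared libraries, and its difference was -0.21 to -0.15 without single libraries. The cause of the changes not explained by construction was not tested. Depth limits FCGR3A (54 to 218 counts a library), FCGR2B (160 to 360) and FCGR3B (at most 20).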
